A study of Rattus norvegicus with 21 samples.

Results

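The liver expression of 9 esterase genes was followed in male Harlan Sprague-Dawley rats dosed with tert-butylphenyl diphenyl phosphate (BPDP), a triaryl phosphate that serves as flame retardant and plasticiser in consumer materials. The genes were listed by name as enzymes that may cleave organophosphate esters: the carboxylesterases Ces2c, Ces1c, Ces1d and Ces1e, the arylacetamide deacetylase Aadac, the butyrylcholinesterase Bche, and the paraoxonases Pon1, Pon2 and Pon3. All 9 were measured, by 11 of the 31042 probe sets tested, and they are 9 of the 14217 genes that the array represented. Rats received BPDP in corn oil by oral gavage once a day for 4 days, and left-lobe liver was collected on day 5. The series holds 6 vehicle arrays (corn oil alone) and 3 arrays at each of 64.6, 129.2, 258.1, 516.2 and 1032.5 mg/kg, where the lowest dose is 0.169 mmol/kg and the highest 2.7 mmol/kg. The labels list 6 vehicle arrays although their protocol counts 5 control rats, and they give no age. All rats were male, of 1 strain and carried no engineered allele, and the p-values measure the spread between arrays labelled as replicates.

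Carboxylesterases and Aadac are serine hydrolases of the hepatocyte endoplasmic reticulum that split esters and amides of drugs, pesticides and stored lipid, and Bche and some carboxylesterases are secreted into plasma. Organophosphates can inhibit such serine enzymes by phosphorylating the serine of the active site. Paraoxonases are calcium-dependent lactonases of another fold. Pon1, which also hydrolyses paraoxon, and Pon3 circulate on high-density lipoprotein (HDL) after release from the liver, whereas Pon2 stays inside cells. The arrays measure mRNA, and neither enzyme activity nor protein.

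The start-site regions of 3 members are shown because they stand for the 3 behaviours described further on: Ces2c, the member that rose at every dose; Ces1c, a carboxylesterase that passed the test at no dose; and Pon2, the paraoxonase that came nearest to the threshold. Each runs 5′ to 3′ on the gene's own strand from 250 bases before to 50 after the RefSeq start in assembly GRCr8. Ces2c lies at chr1:270376951-270377250 (plus strand), Ces1c at chr19:30099197-30099496 (plus) and Pon2 at chr4:34391635-34391934 (minus). Capitals mark matches, on either strand, to AGTTCA, a half-site letter string known from nuclear receptor elements, or to TGACNNNGC, the core string of antioxidant response elements.
Ces2c: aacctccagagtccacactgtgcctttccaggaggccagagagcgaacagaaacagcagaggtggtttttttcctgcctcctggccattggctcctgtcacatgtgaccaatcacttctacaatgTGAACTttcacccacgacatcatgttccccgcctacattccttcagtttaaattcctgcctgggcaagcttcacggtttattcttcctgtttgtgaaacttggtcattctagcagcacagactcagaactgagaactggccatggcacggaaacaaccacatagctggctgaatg
Ces1c: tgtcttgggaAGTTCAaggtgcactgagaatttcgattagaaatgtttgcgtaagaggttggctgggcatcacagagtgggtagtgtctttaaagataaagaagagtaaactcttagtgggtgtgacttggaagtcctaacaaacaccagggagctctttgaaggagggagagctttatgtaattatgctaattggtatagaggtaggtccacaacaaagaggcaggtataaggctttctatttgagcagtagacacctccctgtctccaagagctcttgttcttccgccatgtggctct
Pon2: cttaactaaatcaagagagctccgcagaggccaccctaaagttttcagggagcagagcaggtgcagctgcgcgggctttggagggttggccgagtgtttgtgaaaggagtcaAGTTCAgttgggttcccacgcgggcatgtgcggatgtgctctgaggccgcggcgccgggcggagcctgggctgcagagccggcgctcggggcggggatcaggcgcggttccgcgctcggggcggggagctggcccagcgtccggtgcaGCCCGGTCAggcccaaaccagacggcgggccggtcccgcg

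All 9 members had such a region in RefSeq. AGTTCA was found in 5 of them: Ces2c (bases -125 to -120 from the start, opposite strand), Ces1c, Ces1e, Aadac and Pon2. Of 27457 rat regions of the same kind, 14.4% hold it. AGGTCA, the other half-site string searched, was in none of the 9 and in 15.7% of all regions. TGACNNNGC was found in Bche, Pon2 and Pon3, and in 12.2% of all regions. These are letter matches alone. Of the 5 genes with AGTTCA, Ces2c alone passed the expression test described next. In the RefSeq gene order Ces1f, Ces1e, Ces1d, Ces1c and Ces1a follow each other, Pon1, Pon3 and Pon2 follow each other, and Ces2c stands next to Ces2i. Probe sets of such genes of the same family may read each other's transcripts, which the files used here do not resolve. How alike their sequences are was not measured.

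Across the series, array medians lay between 6.298 and 6.394 on the log2 scale and pairs of arrays correlated at 0.984 to 0.995. Vehicle replicate 6 stood furthest from its group (mean correlation with the other vehicle arrays 0.989). The 5′ minus 3′ difference of the control transcripts, a sign of RNA quality, averaged -1.95 in vehicle, -2.30 at 516.2 and -1.54 at 1032.5 mg/kg, and was lowest on 258.1 mg/kg replicate 1, at -3.10. Hepatocyte markers identified the tissue: the log2 of their summed signal was 17.90 to 17.98 in vehicle and 17.82 to 17.86 at 1032.5 mg/kg, where 1 of the 9 measured was called lower. At that dose 3 of 10 stellate-cell markers, 2 of 7 Kupffer-cell, 2 of 9 lymphocyte, 1 of 8 endothelial and 2 of 3 red-cell markers were called lower, 1 of 5 cholangiocyte markers was called higher, and 0 of 4 neutrophil markers passed (2 were lower at an unadjusted p below 0.05), where 6.15% of all probe sets were called. At an unadjusted limma p below 0.05, 6 of 7 Kupffer-cell, 6 of 9 lymphocyte and 5 of 9 hepatocyte markers were lower at 1032.5 mg/kg. So were 3 of 10 stellate-cell, 3 of 8 endothelial and 2 of 3 red-cell markers, and no marker of these 6 cell types was higher. Of all probe sets 17.9% had such a p, in either direction. At 516.2 mg/kg 6 of 10 stellate-cell and 2 of 8 endothelial markers were called lower, beside 6.02% of all probe sets. Between vehicle and 1032.5 mg/kg the summed signal went from 11.80 to 12.43 down to 11.44 to 11.69 for stellate cells, from 12.83 to 13.35 down to 12.40 to 12.75 for Kupffer cells, and from 12.40 to 13.77 down to 10.59 to 11.83 for red cells. No marker is listed at 0, the part of these shifts in the results was not tested, and in whole liver fewer cells of a type and less RNA per cell cannot be told apart.

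The first comparison asked which of the 9 genes differed from vehicle at each dose. Ces2c rose at every dose, from 2.75-fold at 64.6 to 14.4-fold at 1032.5 mg/kg. None of the other 8 genes passed the test at any dose (limma, Benjamini-Hochberg adjusted p below 0.05 over all 31042 probe sets). The count was thus 1 of 9 higher and 0 of 9 lower at each dose. Among all probe sets, 0.248% were called at 64.6, 0.348% at 129.2, 2.35% at 258.1, 6.02% at 516.2 and 6.15% at 1032.5 mg/kg, so at the upper 2 doses 1 call among 9 genes is little above the share in the whole array. The median log2 change of the 9 genes was 0.02, 0.07, 0.13, 0.10 and -0.01 from the lowest to the highest dose, beside -0.00, -0.01, 0.01, 0.00 and -0.01 for all genes. At an unadjusted p below 0.05, 1 gene was higher at 64.6, 129.2 and 516.2 mg/kg, 3 at 258.1 mg/kg (Ces2c, Bche and Ces1c), and at 1032.5 mg/kg 1 was higher and 2 were lower (Ces1d and Pon2).

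Ces2c encodes a liver carboxylesterase of the second family, which favours esters with a bulky alcohol part. Its probe set (Entrez gene 171118) read 9.21, 9.13, 8.75, 9.19, 8.52 and 9.10 log2 units on the 6 vehicle arrays, a mean of 8.99 ± 0.28 (SD, n = 6). The 3 arrays at 64.6 mg/kg read 10.54, 10.39 and 10.40, and those at 129.2 mg/kg 10.31, 10.74 and 10.66. All 6 lay above all 6 vehicle arrays, by more than the whole spread of the vehicle group. At 258.1 mg/kg the arrays read 11.89, 11.68 and 11.19, and at 516.2 mg/kg 11.57, 12.75 and 11.92. At 1032.5 mg/kg they read 12.66, 13.21 and 12.63, a mean of 12.83 ± 0.32 (SD, n = 3). No dosed array reached down to the vehicle range at any dose, whereas neighbouring dose groups shared parts of their ranges in 3 of the 4 steps, the exception being 129.2 to 258.1 mg/kg.

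**Figure D1:**
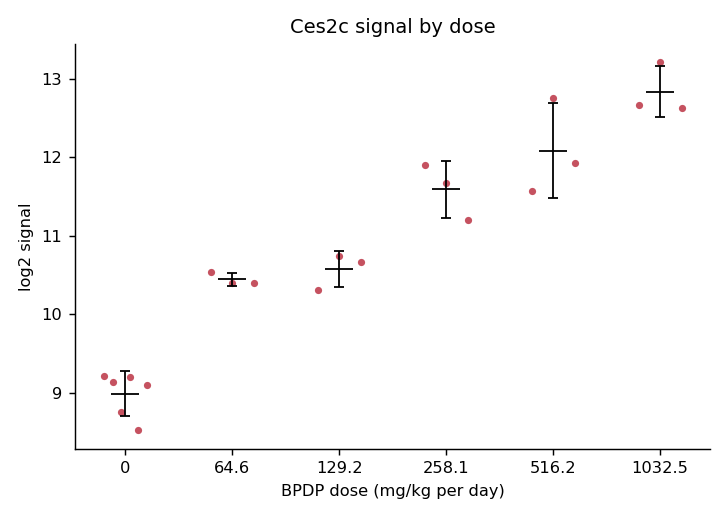
Ces2c log2 signal (vertical axis) on each of the 21 arrays by BPDP dose in mg/kg per day (horizontal axis, evenly spaced groups), with the mean and SD of each group. The 15 dosed arrays, from 10.31 upward, all sit above the 6 vehicle arrays, which reach 9.21.

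In the limma fit the log2 change of Ces2c from vehicle was 1.46 at 64.6 (2.75-fold, adjusted p = 0.00179) and 1.59 at 129.2 mg/kg (3.00-fold, adjusted p = 0.000978), each with an SE of 0.21. It was 2.60 at 258.1 (6.07-fold, adjusted p = 8.41e-07) and 3.10 at 516.2 mg/kg (8.56-fold, adjusted p = 4.94e-08). At 1032.5 mg/kg it was 3.85 (95% interval 3.40 to 4.29, 14.4-fold, adjusted p = 1.32e-09). Ordered by the size of the rise among 14217 genes, Ces2c stood at place 10 at 64.6, 9 at 129.2, 6 at 258.1 and 3 at both 516.2 and 1032.5 mg/kg. Its arrays also varied more within groups than most genes, with a residual SD of 0.34, above that of 95.6% of probe sets. With the RNA-quality difference as a covariate the 5 changes were 1.46, 1.58, 2.60, 3.10 and 3.84, and without vehicle replicate 6 they were 1.48, 1.61, 2.63, 3.12 and 3.87.

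Ces2c also followed the dose among the dosed arrays alone. Over these 15 arrays it climbed by 0.63 log2 units per dose step (SE 0.06, 1.55-fold per step, limma adjusted p = 2.42e-05), where 2.28% of all probe sets were called, and it was the only called member. Its slope was number 4 from the top among 14217 genes. The steps were uneven: 0.13 from 64.6 to 129.2 mg/kg (95% interval -0.39 to 0.64), 1.02 from 129.2 to 258.1 (0.50 to 1.53), 0.50 from 258.1 to 516.2 (-0.02 to 1.01) and 0.75 from 516.2 to 1032.5 (0.23 to 1.26). None of these steps passed the adjusted test (limma adjusted p = 0.999, 0.434, 0.723 and 0.393). Of all probe sets 0% were called in each of the 4 steps, although 4.98%, 5.05%, 6.89% and 9.3% had an unadjusted p below 0.05. Before adjustment the interval lay above 0 for the step to 258.1 mg/kg and for the last step. Without 516.2 mg/kg replicate 2, the highest array of its group, the last step was 1.08 and passed (adjusted p = 0.0463).

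The 3 carboxylesterases of the first family that were measured did not follow Ces2c. Ces1c, whose product is secreted into rodent plasma, read 13.78 to 13.87 on the vehicle arrays, with a median of 13.83 (Entrez gene 24346). It read 13.63, 13.83 and 14.00 at 64.6 mg/kg, 13.82, 13.89 and 14.07 at 129.2, 13.96, 13.99 and 14.04 at 258.1, 14.11, 13.89 and 13.89 at 516.2, and 13.91, 13.88 and 13.78 at 1032.5 mg/kg. The groups at 258.1 and 516.2 mg/kg lay above the vehicle range and the group at 1032.5 mg/kg overlapped it. The log2 change was 0.17 at 258.1 mg/kg (95% interval 0.00 to 0.34, limma adjusted p = 0.376) and 0.03 at 1032.5 mg/kg (-0.14 to 0.20, adjusted p = 0.905). A second Ces1c probe set was dim in every group, with an overall mean of 4.08 where the arrays' lower quartile averaged 5.03, and passed at no dose. Its log2 changes were 0.35 and 0.43 at the lower 2 doses and between -0.05 and 0.06 at the other 3.

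Ces1d is the triacylglycerol hydrolase that frees stored fat for lipoprotein assembly in rodent liver. Its vehicle arrays (Entrez gene 113902) read 13.69, 13.64, 13.18, 13.73, 13.22 and 13.74, so 2 of the 6, at 13.18 and 13.22, stood under the other 4. The arrays read 13.04, 13.45 and 13.34 at 64.6 mg/kg and 13.69, 13.66 and 13.72 at 129.2 mg/kg. They read 12.96, 13.17 and 13.49 at 1032.5 mg/kg, where the lower 2 arrays lay under the vehicle range. The change there was -0.33 (SE 0.14, 95% interval -0.62 to -0.03) and did not pass the adjusted test (adjusted p = 0.210). At the 4 lower doses the changes were -0.26, 0.16, 0.08 and -0.11, which gives no order with dose.

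Ces1e (Entrez gene 29225), known in mouse as egasyn, which holds beta-glucuronidase in the endoplasmic reticulum, read 10.64 to 11.004 in vehicle (median 10.77) and 11.10, 10.94 and 10.83 at 1032.5 mg/kg. Its dosed means were above the vehicle mean at all 5 doses, by 0.09, 0.07, 0.13, 0.17 and 0.16 log2 units, and every dose group overlapped the vehicle range. The lowest adjusted p was 0.282, at 516.2 mg/kg. The 95% interval at 1032.5 mg/kg ran from -0.03 to 0.35.

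Aadac (Entrez gene 57300), which deacetylates arylacetamides and also splits glycerides inside the endoplasmic reticulum, read 10.86, 11.04, 10.90, 10.87, 10.83 and 10.89 on the vehicle arrays. At 1032.5 mg/kg it read 11.07, 10.45 and 10.80, so these 3 arrays spanned more than the whole vehicle group on both sides. The changes were -0.19, -0.06, 0.13, 0.10 and -0.13 from the lowest to the highest dose, with an SE of 0.11, and none passed (lowest adjusted p = 0.640). Bche (Entrez gene 65036), the plasma cholinesterase that binds organophosphates, read 6.35 to 6.69 in vehicle (median 6.51). It read 7.04, 6.78 and 6.57 at 258.1 mg/kg and 6.83, 6.34 and 6.68 at 1032.5 mg/kg. Its largest change was 0.28 at 258.1 mg/kg (95% interval 0.05 to 0.52, limma adjusted p = 0.259), and at 1032.5 mg/kg it was 0.10 (-0.13 to 0.34). Every Bche dose group overlapped the vehicle range.

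Pon1, the HDL-borne enzyme that hydrolyses paraoxon, gave one of the steadiest signals on the array, and one of the brightest. Its mean stood at percentile 99.7 of all probe sets, as did that of Ces1c, and Ces1d stood at 99.5. Whether probe sets this bright could still show a rise was not tested. Its vehicle arrays read 13.77, 13.84, 13.89, 13.79, 13.81 and 13.88 (Entrez gene 84024). At 1032.5 mg/kg it read 13.93, 13.77 and 13.76, and over all 21 arrays 13.69 to 13.93. Its 6 group means lay within 0.08 log2 units of each other and its residual SD was 0.07, below that of all but 0.709% of probe sets. The change at 1032.5 mg/kg was -0.01 with a 95% interval of -0.15 to 0.13. A dimmer probe set of the gene gave changes of -0.09, -0.02, 0.16, 0.15 and 0.16. It passed at no dose, and its slope among the dosed arrays was 0.07 per step (limma adjusted p = 0.161).

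Pon2 (Entrez gene 296851), the intracellular lactonase, read 11.41, 11.41, 11.53, 11.50, 11.60 and 11.44 in vehicle and 11.25, 11.23 and 11.22 at 1032.5 mg/kg. The 3 arrays at that dose lay below all 6 vehicle arrays and close together (SD 0.02). The change was -0.25 (SE 0.07, 95% interval -0.40 to -0.09), with a limma adjusted p of 0.0548, so Pon2 did not pass the threshold. It passed under 8 of 32 alternatives, with limma adjusted p from 0.0207 to 0.0491. These were 5 other ways of scaling or testing, and leaving out 1 of 3 arrays of other dose groups. Under the rest Pon2 did not pass, with an adjusted p of up to 0.201, for example 0.114 with the array median subtracted. At the 4 lower doses the changes were -0.06, -0.05, -0.04 and -0.12, and their groups overlapped the vehicle range. The slope among dosed arrays was -0.04 per step (limma adjusted p = 0.317).

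Pon3 (Entrez gene 312086), an HDL-borne lactonase with little action on paraoxon, read 12.69 to 12.93 in vehicle (median 12.79) and 12.98, 12.56 and 12.64 at 1032.5 mg/kg. The arrays at 1032.5 mg/kg reached beyond the vehicle range on both sides. The changes were 0.03, 0.07, -0.00, 0.05 and -0.07, each with an SE of 0.09 (lowest limma adjusted p = 0.778). Counted over the 9 genes, each by its brightest probe set, groups that did not overlap vehicle were found for Ces2c alone at 64.6 and 129.2 mg/kg, for Ces2c and Ces1c at 258.1 and 516.2 mg/kg, and for Ces2c and Pon2 at 1032.5 mg/kg. The dim second probe set of Ces1c also lay above the vehicle range at 64.6 mg/kg (4.30 ± 0.09, SD, n = 3, against 3.96 ± 0.12, n = 6). Among all probe sets, 4.71%, 4.18%, 6.85%, 10.7% and 10.7% had groups that did not overlap at these 5 doses.

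**Figure D2:**
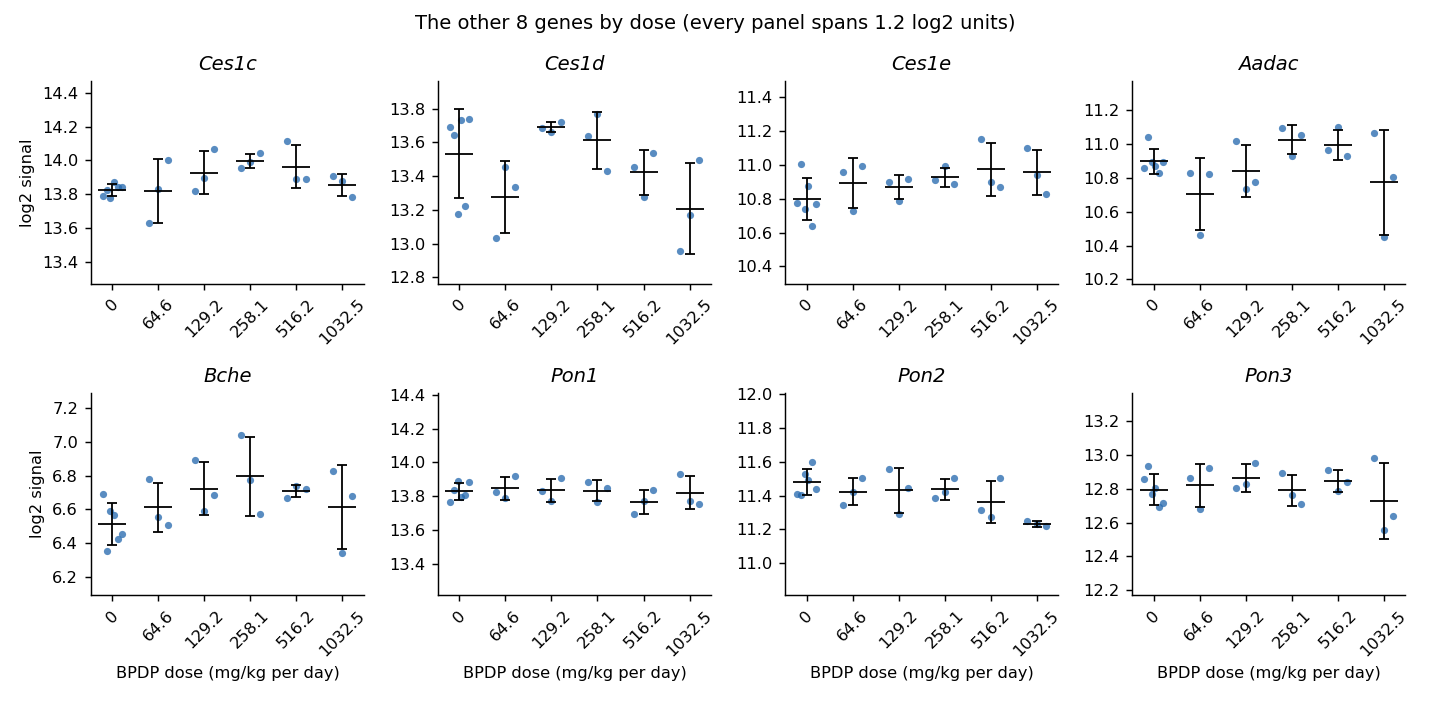
Log2 signal of the other 8 genes on each of the 21 arrays by BPDP dose in mg/kg per day, with the mean and SD of each group. Every panel spans the same 1.2 log2 units, so that the flat course of Pon1 (13.69 to 13.93) can be set beside the scatter of Ces1d (12.96 to 13.77), and the 3 Pon2 arrays at 1032.5 mg/kg sit together under the vehicle arrays.

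The moderated F test over all 5 doses called Ces2c (adjusted p = 1.26e-08) and none of the other members, where 4.62% of all probe sets were called. Among the other members' probe sets the lowest adjusted p was 0.118, for the dim second probe set of Ces1c, followed by 0.265 for Ces1d. Across the 21 arrays Ces2c correlated with Pon2 at r = -0.70, and at -0.60 after each array's group mean was subtracted. With Ces1e it correlated at 0.51 and, after that subtraction, at 0.01. After subtraction Ces1e and Pon3 correlated at 0.72, Aadac and Pon3 at 0.66, and Aadac and Bche at 0.54. These are descriptions over 36 pairs of genes whose values come from the same arrays and so share each array's RNA.

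The genes most like Ces2c over the 21 arrays, by Pearson's r across all 14217 genes, were Akr7a3 (r = 0.963), an aldehyde reductase that acts on aflatoxin dialdehyde, Aox1 (0.961), an aldehyde oxidase, and Cryl1 (0.960), a gulonate dehydrogenase. The most opposed was Slc6a6 (r = -0.954), the taurine transporter. Akr7a3 averaged 11.35 ± 0.23 (SD, n = 6) in vehicle, 12.37 at 64.6 and 13.59 ± 0.28 (n = 3) at 1032.5 mg/kg. The log2 change of Cryl1 was 1.02 at 64.6 mg/kg and 2.29 at 1032.5 mg/kg. That of Aox1 was 0.45 and 0.87, and that of Slc6a6 -1.49 and -3.92. These 4 genes were picked for following Ces2c, which differed from vehicle at every dose, over the same arrays, so their own differences from vehicle are given as a description. Between 64.6 and 129.2 mg/kg the change of Akr7a3 went from 1.01 to 1.35 and that of Cryl1 from 1.02 to 1.08, beside 1.46 and 1.59 for Ces2c.

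**Figure D3:**
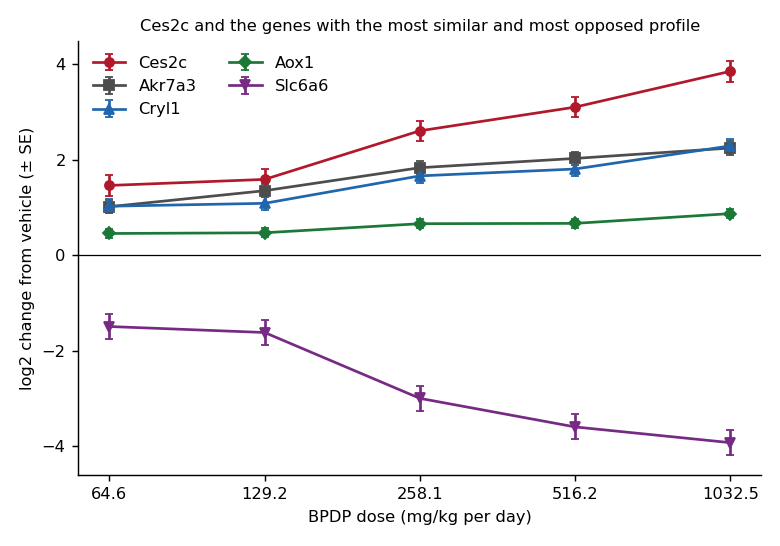
Log2 change from vehicle (vertical axis, with standard error) by BPDP dose (horizontal axis, evenly spaced doses) for Ces2c, the 3 genes most correlated with it and the most opposed gene. Ces2c goes from 1.46 to 3.85 and Slc6a6 from -1.49 to -3.92.

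Other esterases were counted for comparison. Of 19 further carboxylesterase genes listed, 1 had a probe set naming it alone: Ces5a, a secreted carboxylesterase. It averaged 5.51 ± 0.10 (SD, n = 6) in vehicle and 5.42 ± 0.12 (n = 3) at 1032.5 mg/kg, a change of -0.09 (limma adjusted p = 0.721). The sister genes of the second family, Ces2i next door included, were thus not analysed here. Of 45 other ester hydrolases, 36 were measured, and 9 rose and 4 fell at 1032.5 mg/kg with a median change of 0.09. At the lower doses 6 rose and 3 fell at 516.2 mg/kg, 3 rose and 2 fell at 258.1, and at 129.2 mg/kg 1 passed, Lipa, the lysosomal acid lipase, which fell by 0.46 log2 units. That call was lost with only the groups compared, with the replicate number as a block, and without 129.2 mg/kg replicate 2 or 3. None passed at 64.6 mg/kg with limma, where 1 was higher and 1 lower at an unadjusted p below 0.05. These shares stand beside the 6.15%, 6.02%, 2.35%, 0.348% and 0.248% called among all probe sets at those doses.

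The largest changes among these hydrolases at 1032.5 mg/kg went both ways. Nceh1, a neutral cholesterol ester hydrolase, was higher by 1.44 log2 units (2.71-fold, limma adjusted p = 0.0234), although its vehicle arrays ran from 7.03 to 9.17 and overlapped the 9.08, 9.84 and 9.94 at that dose. Abhd2, an alpha/beta hydrolase that acts on glycerides, fell from 10.00 ± 0.18 (SD, n = 6) to 8.63 ± 0.17 (n = 3), or 2.58-fold (adjusted p = 5.24e-06), and was also lower at 258.1 and 516.2 mg/kg. Mgll, the monoacylglycerol lipase, rose from 9.53 ± 0.11 to 10.37 ± 0.25 (1.79-fold, adjusted p = 6.10e-05). Lpl, which clears lipoprotein fat, was lower by 1.90-fold with an adjusted p of 0.0295, and Lipc, hepatic lipase, went from 12.89 ± 0.08 to 12.35 ± 0.22. Rgn, regucalcin, a lactonase like the paraoxonases but of the gluconolactone kind, was 1.56-fold lower (adjusted p = 0.000244), from 13.62 ± 0.05 to 12.98 ± 0.24. The calls of Nceh1 and Lpl were lost under several alternatives, Lpl for example with an adjusted p of 0.240 without 1032.5 mg/kg replicate 1.

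HDL is the carrier of Pon1 and Pon3, and 12 of 14 listed genes of HDL proteins, their enzymes and receptors were measured. At 1032.5 mg/kg 4 fell and 1 rose, at 516.2 mg/kg 3 fell, at 258.1 mg/kg 1 fell, and none passed at 64.6 or 129.2 mg/kg with limma (1 was lower at each at an unadjusted p below 0.05). Of all probe sets 6.15%, 6.02%, 2.35%, 0.248% and 0.348% were called at these doses in turn. The median change of the 12 at 1032.5 mg/kg was -0.02. Apoa4, an apolipoprotein of HDL and chylomicrons, averaged 12.68 ± 0.09 (SD, n = 6) in vehicle, 11.22 ± 0.05 at 258.1 and 10.57 ± 0.39 at 1032.5 mg/kg (n = 3 each). It was 4.30-fold lower at the highest dose (limma adjusted p = 3.96e-06). Lcat, which esterifies HDL cholesterol, went from 13.39 ± 0.05 to 13.07 ± 0.07 (1.25-fold lower, adjusted p = 0.00327), and Pltp, the phospholipid transfer protein, was 1.76-fold lower (adjusted p = 0.0140). Apoa2, a structural apolipoprotein, was 1.17-fold lower (adjusted p = 0.0244) and Clu, clusterin, 1.28-fold higher (adjusted p = 0.0409). Apoa1, the main HDL apolipoprotein, changed by 0.06 and did not pass (adjusted p = 0.778), and Pon1 and Pon3 did not either. By adjusted p alone, the calls of Apoa2 and Clu were lost under 8 and 11 of the 32 alternatives. That of Pltp was lost without 1032.5 mg/kg replicate 1 or 3 (limma adjusted p = 0.0551 and 0.101). A fold of at least 1.5, which Apoa2, Clu and Lcat did not reach, was not counted in these losses.

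**Figure D4:**
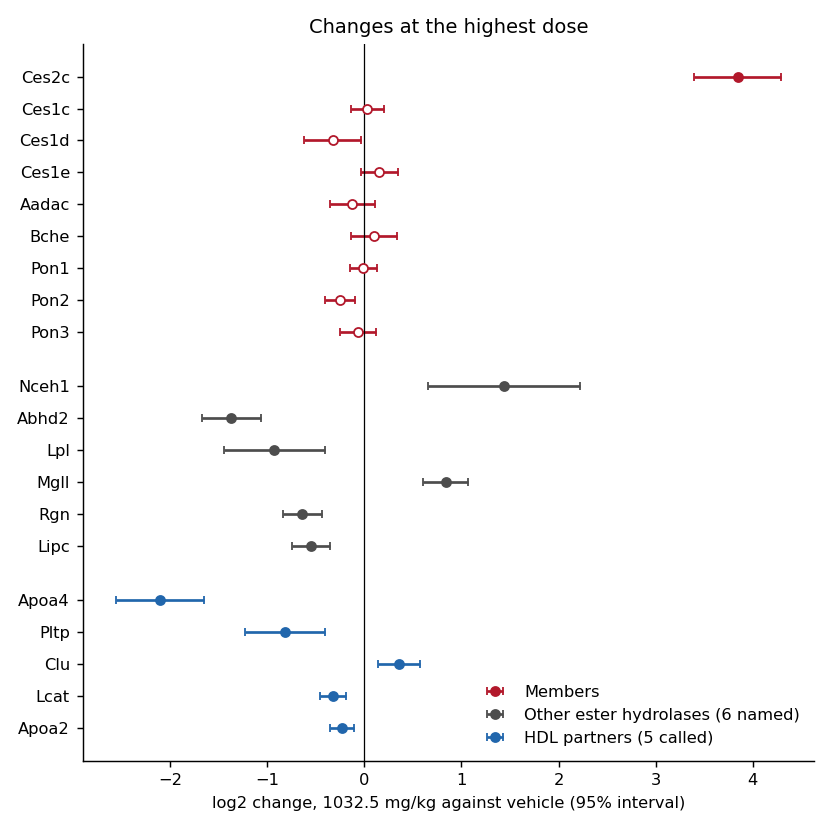
Log2 change at 1032.5 mg/kg against vehicle with its 95% interval for the 9 genes, 6 other ester hydrolases and the 5 HDL genes called at that dose. Filled points passed limma's adjusted threshold and open points did not. Ces2c, at 3.85, stands apart from the other 8 genes, whose intervals lie between -0.62 and 0.35.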

How the data were processed

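Rat liver RNA was hybridised to 21 Affymetrix arrays. The deposited values are log2 signals, made with RMA according to the submitters' processing notes. For software settings and genome build, the sources used here state nothing. Values were used as deposited, without scaling, filter or pseudocount. Arrays carry no read depth, and their number limits precision.

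After exclusion of 57 controls, 31042 probe sets were tested, of which 20826 name 1 gene, 436 several and 9780 none. Symbols were updated against RefSeq GRCr8 (20758 by Entrez identifier, 2 by accession, 66 kept), and the brightest probe set naming a gene alone represents it. Start-site regions are RefSeq's. Protein sequences are not used here.

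Groups follow the labels. limma 3.58.1 in R 4.3.3 (lmFit, eBayes) fitted 6 group means in 1 fit. Each dose was compared with vehicle and with the dose below, a slope per dose step was fitted over the 15 dosed arrays, and a moderated F covered the 5 doses. P-values are two-sided and Benjamini-Hochberg adjusted over all probe sets, with a threshold of 0.05; "rose", "fell", "called" and "passed" refer to it. Intervals are 95%, and folds are log2 changes turned back to a linear scale. The fit was tested on simulated data first. All 9 members are named, with up to 6 called genes of each comparison list, largest change at 1032.5 mg/kg first, or the brightest where none was called. Single genes called at lower doses only, and Apoa1, were named after their values were seen. The members, lists and alternatives were chosen with earlier results of these data known.

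Replicate numbers recur in all groups. Deviations of arrays with the same number correlated at -0.280 to 0.394 between groups. No such range was computed for arrays with different numbers, so this does not decide whether the numbers pair the rats. The main fit treats the arrays as unpaired. Alternatives were another scaling, filter, variance model, array weights, call rule, dose scale, probe set choice, an RNA-quality covariate, a replicate block and each array left out.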

Additional observations from a re-analysis of the deposited data

Results flagged for a closer look

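Aadac in the vehicle group had 1 array far from the others. Vehicle replicate 2 read 11.04 log2 units and the other 5 arrays 10.83 to 10.90, and the gap to the nearest array was 0.692 of the group's whole range, above Dixon's 95% critical value for 6 arrays. Chance gives such a flag in about 1 in 20 groups, and the vehicle groups of 9 genes were checked. Aadac passed the test against vehicle under none of its 32 alternatives, the fit without that array included.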

How the results depend on the processing

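Ces2c passed at every dose under all 32 alternatives, with log2 changes of at least 1.37 at 64.6 mg/kg, 1.49 to 1.73 at 129.2, 2.45 to 2.80 at 258.1, 2.76 to 3.35 at 516.2 and 3.66 to 3.95 at 1032.5 mg/kg. With the replicate block they were 1.41, 1.54, 2.55, 3.05 and 3.80, and the block ended no call among the 9 genes. No called result changed sign. Changes that passed no test sometimes did, such as that of Aadac at 1032.5 mg/kg (-0.27 to 0.04). The 9 genes gave 2 calls at 1032.5 mg/kg, Ces2c and Pon2, in place of 1 under cyclic loess (Pon2 adjusted p = 0.0207), without the dimmer probe sets (0.0483), with 1 probe set per gene (0.038), with array weights (0.024) and with probe sets of a gene averaged (0.0307). With each array left out this count ran from 1 to 2. Pon2 passed under 8 of its 32 alternatives and not under the rest, where the adjusted p reached 0.201. For neighbouring doses, Ces2c gave 1 call at 258.1 against 129.2 mg/kg under array weights (adjusted p = 0.017), and with each array left out the calls at 1032.5 against 516.2 mg/kg ran from 0 to 1.

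The calls among the 37 other esterases measured moved more. At 129.2 mg/kg there was 1 (Lipa), which became 0 with only the groups compared, with the replicate block and with a fold of at least 1.5 as well, 7 under array weights, and 0 to 1 with each array left out. At 258.1 mg/kg there were 5, which became 3 with only the groups compared or the array median subtracted, 1 with the fold rule, and 1 to 6 with each array left out. At 516.2 mg/kg there were 9, which became 1 with the fold rule and 4 to 10 with each array left out. At 1032.5 mg/kg there were 13, which became 5 with the fold rule and 6 to 13 with each array left out. The fold rule adds a condition and so can only lower a count. The cause of the other shifts was not tested. Among named genes at 1032.5 mg/kg, Nceh1 lost its call with only the groups compared, with an intensity trend and robust variance, and without replicate 1 or 2 of that dose (adjusted p up to 0.129). Lpl lost it under 6 alternatives (up to 0.240), Clu under 11 (up to 0.191), Apoa2 under 8 (up to 0.0931) and Pltp under 2 (up to 0.101). These losses of single genes count the adjusted p alone and leave out the fold rule, which Clu and Apoa2 did not meet. Probe sets whose signal lies under the lower quartile, such as the second of Ces1c, say little about their gene.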
